A study of Mus musculus with 2 samples.

Results

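The subject is a module of 44 genes of DNA replication and S phase, chosen by name: the licensing factors, replicative helicase, polymerases, sliding clamp and its loader, nucleotide-making enzymes, chromatin factors, checkpoint and repair genes, and the cyclins E and E2F factors that govern them. All 44 had a row among the 18088 genes of the deposited matrix, all 44 reached the minimum of 30 summed values used here, and none was at 0 in any of the 3 classes of cells compared. The cells came from the medial ganglionic eminence, the ventral forebrain region that produces interneurons, of CD-1 mouse embryos at stage E11.5, and were sequenced on the 10x Chromium platform as 1 pooled MULTI-seq RNA library, in which lipid-anchored oligos mark the cells of each suspension. The pool held 6 sample barcodes, of which 4 marked GFP cells (2 for the enhancer hs192 and 2 for hs799) and 2 marked ungated cells. No map from cells to barcodes was used, so all cells are treated as 1 sample of mixed GFP and ungated origin, and the values below are descriptions with no test.

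Replication begins when the origin recognition complex, Cdc6 and Cdt1 load the Mcm2-7 ring onto DNA in G1, and it fires in S phase when Cdc45 and the GINS complex join the ring to make the active helicase. Pcna, loaded by the RFC complex, then holds the polymerases on the template while Fen1 and Lig1 finish the lagging strand. Most of these genes are transcribed under E2F factors as a cell enters S phase, and in the embryonic forebrain they mark dividing ventricular and subventricular zone cells, while young neurons have left the cycle.

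The matrix held 4001 cells with totals between 10475 and 14196 (median 12506), and 3995 cells remained after 6 doublet calls. Clustering with the 44 genes left out gave 17 clusters, which were named from marker lists. The 1047 Hes5 progenitor-like cells (26.2% of cells, clusters 2, 4 and 7) are called Hes5 progenitors, the 267 Dlx2-positive cycling cells (6.68%, clusters 1 and 3) Dlx2 cycling cells, and the 2189 neuron-like cells (54.8%, 9 clusters) Tubb3-high neurons. A class needed at least 3 raised markers (1.5-fold above the other cells) and more of its own list than of the others, and the Dlx2 class also raised mitotic genes. Another 492 cells (12.3%) stayed unnamed: cluster 6 had 7 raised markers of the Hes5 list and 7 of the Dlx2 list, cluster 14 had 5 of the Dlx2 list, 3 of the neuron list and no raised mitotic gene, and cluster 17 had 2 of the neuron list. A level is a gene's summed value per 10000 summed values of the class. Hes5, a Notch target of progenitors, had a level of 12.3 in Hes5 progenitors, 3.01 in Dlx2 cycling cells and 0.281 in Tubb3-high neurons. Dlx2, a transcription factor of subpallial differentiation, had 0.578, 4.98 and 2.97 in the same order, and Tubb3, a neuronal tubulin, had 1.95, 12.2 and 32.5. These genes are on the lists that named the classes, so their levels describe the classes and are no check of the names. The Dlx2 class was also required to be high in mitotic genes such as Mki67 (3.76 in Hes5 progenitors, 5.17 in Dlx2 cycling cells, 0.0609 in neurons), so its cycling state is part of its definition. Neuron clusters had to raise fewer than 3 of the 5 mitotic genes, so their low level of these genes is part of the definition too. Median totals were 13516, 13441 and 11965 in the 3 classes. Only 1 of 5 endothelial markers (Pecam1), 1 of 3 mural markers (Pdgfrb) and 1 of 5 microglial markers (Aif1) had a row. Each of these was under 0.05 in every class, so a single gene stands for each of these cell types. The 5 erythroid globin genes summed to 1.33 in Hes5 progenitors, 1.39 in Dlx2 cycling cells and 1.66 in neurons. The 2 choroid plexus genes with a row summed to 1.15, 0.230 and 0.0609. The part of these genes in the results was not tested.

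The replication module separated the cycling classes from the neurons almost cell by cell. The summed level of the 44 genes averaged 69.0 ± 25.6 in Hes5 progenitors (SD over 1047 cells), 62.8 ± 34.6 in Dlx2 cycling cells (267 cells) and 7.32 ± 3.75 in Tubb3-high neurons (2189 cells). The 492 unnamed cells, left out of this comparison, averaged 22.2 ± 23.4, and their central 80% ran from 5.91 to 56.5. These SDs describe cells of 1 library and are no replicate error. The summed level was above 20 in 1043 Hes5 progenitors (99.6%) and in 252 Dlx2 cycling cells (94.4%), but in 11 neurons (0.503%). The ranges still met at their ends, since the lowest Hes5 progenitor had 6.72 and the highest neuron 70.4. The median cell had a value for 32 of the 44 genes among Hes5 progenitors, 27 among Dlx2 cycling cells and 6 among neurons; with every cell thinned to 10000 values these medians were 29, 25 and 6. Dlx2 cycling cells were the most spread class: 42.7% of them lay at or below 45, against 20.6% of Hes5 progenitors, and the central 80% of the Dlx2 cells ran from 23.6 to 113, against 36.3 to 104 in the Hes5 cells.

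**Figure D1:**
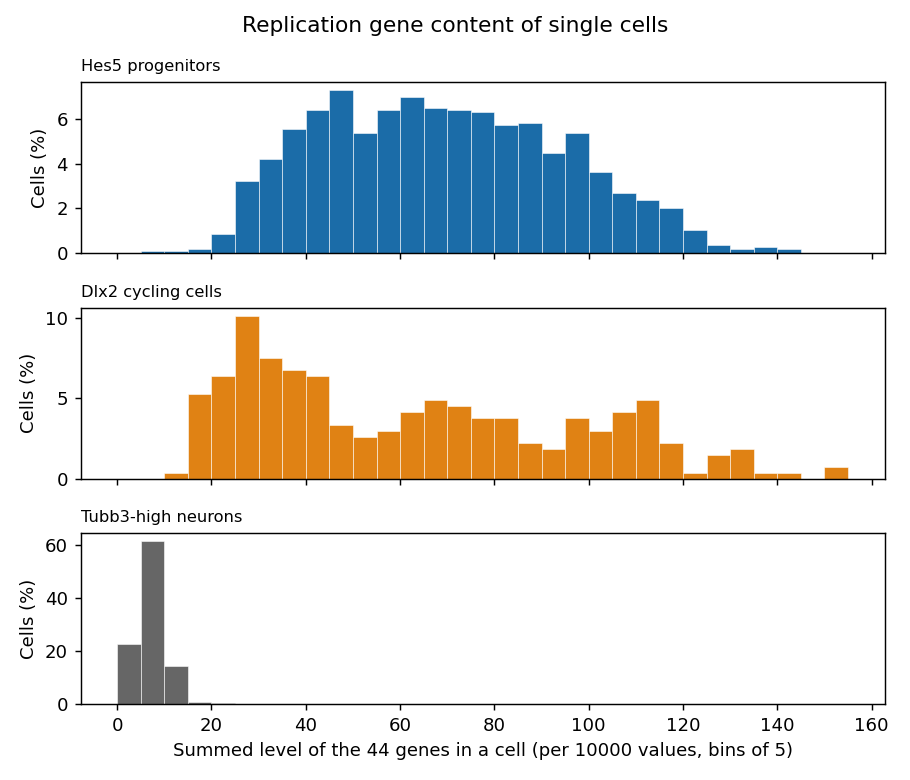
Histograms of the summed level of the 44 replication genes in single cells (x axis, summed values per 10000, bins of 5; y axis, percent of the class's cells) for the 3 classes. Hes5 progenitors form 1 broad hump, Dlx2 cycling cells pile up at low sums with a long upper range, and nearly all neurons stay below 20. The unnamed cells are not shown.

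Of the 44 genes, 34 had a promoter in the RefSeq table (build GRCm38.p6), read from 250 bases before to 50 bases after the start given there. The E2F letters TTTCCCGC, TTTCGCGC, TTTGCCGC and TTTGGCGC were searched on both strands, with overlapping matches counted apart. They occurred in 14 of the 34 genes (41.2%), against 704 of 27025 genes of the whole table (2.61%). A separate list of 44 other replication genes held them in 15 of 37 genes (40.5%), and a list of G2 and mitosis genes in 1 of 24 (4.17%). The letters TTTGAA, known as the CHR element of mitotic promoters, were in 4 of the 34 genes (11.8%), in 18 of 24 G2 and mitosis genes (75.0%) and in 20.2% of all genes. CCAAT was in 20 of the 34 genes (58.8%), in 20 of 24 mitotic ones (83.3%) and in 41.1% of all genes. The stretches below are those with E2F letters upstream of the start; they are shown because these letters were in a larger share of the module than of all genes, although 20 of its 34 promoters lacked them, and capitals mark the matches. Each reads 5′ to 3′ on the gene's own strand.
Cdc6, chr11:98907988-98908045, plus strand: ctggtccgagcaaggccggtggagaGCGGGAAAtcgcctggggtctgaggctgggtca
Mcm5, chr8:75109331-75109392, plus strand: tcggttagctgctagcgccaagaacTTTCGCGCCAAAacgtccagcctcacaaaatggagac
Mcm6, chr1:128359720-128359840, minus strand: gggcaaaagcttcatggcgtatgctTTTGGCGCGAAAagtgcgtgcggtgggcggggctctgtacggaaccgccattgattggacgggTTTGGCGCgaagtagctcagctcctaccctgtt
Mcm7, chr5:138172030-138172059, minus strand: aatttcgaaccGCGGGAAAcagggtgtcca
Dtl, chr1:191575545-191575577, minus strand: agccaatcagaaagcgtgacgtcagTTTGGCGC
Hells, chr19:38930917-38930946, plus strand: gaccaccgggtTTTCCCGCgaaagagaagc
Uhrf1, chr17:56304103-56304160, plus strand: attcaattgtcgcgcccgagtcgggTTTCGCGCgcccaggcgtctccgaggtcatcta
Pola1, chrX:93632261-93632318, minus strand: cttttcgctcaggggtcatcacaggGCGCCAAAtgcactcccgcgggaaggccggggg
Rfc3, chr5:151651209-151651229, minus strand: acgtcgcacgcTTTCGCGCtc
In Mcm5 and in the upstream block of Mcm6, 2 matches on opposite strands overlap, and Mcm6 holds 3 matches in all. The first matched base lies 138 bases upstream of the RefSeq start in Cdc6 and 8 bases upstream in Dtl. By the GENCODE gene positions, used for the gene coordinates below, the printed stretches of Cdc6, Uhrf1, Mcm7, Hells and Rfc3 lie inside the gene. Those of Mcm7, Hells and Rfc3 touch a GENCODE exon. Mcm3, Clspn, Lig1, Pold1 and Cdt1 held matches only at or after the start and are not printed. A match is a string of letters, and binding was not measured. The promoters of Gins1, Gins2, Rfc2, Esco2, Prim2, Mcm4, Pole, Ccne2, Gmnn and Exo1 were not analysed here.

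Every one of the 44 genes was at least 2-fold higher in Hes5 progenitors than in Tubb3-high neurons, a threshold that 24.8% of 15284 genes passed. The median log2 ratio was 3.90, with a range from 1.40 for Rfc3 to 7.90 for E2f8, and the median of all tested genes was 0.18. In Dlx2 cycling cells all 44 were again at least 2-fold above neurons (18.2% of 15280 genes), with a median log2 ratio of 3.58 and a range from 1.29 for Rfc2 to 7.73 for E2f8. Both comparisons share the neurons. The neuron class was named in part by few raised mitotic genes, and cell cycle genes outside the module stayed in the clustering. The direction of both comparisons is thus set in part by how the classes were made. Between the pooled cycling classes the module was close to level. The Dlx2 class pools 2 unlike clusters, with summed levels of 83.2 in cluster 1 (162 cells) and 31.7 in cluster 3 (105 cells). The Hes5 clusters lay between them, from 65.4 to 79.2. The module's median log2 ratio of pooled Dlx2 cycling cells over Hes5 progenitors was -0.16, against -0.10 for all tested genes. The ratio was below 1 for 32 genes and above 1 for 12, against 8863 below and 6403 above among 15266 genes. In Dlx2 cycling cells 4 genes (9.09%) were at least 2-fold lower (13% of 15266 genes) and 0 at least 2-fold higher (5.6%). The share lower was thus under the background. The median log2 ratio of the module turned to 0.26 with coarser clusters, which left 142 Dlx2 cycling cells and no gene at least 2-fold lower.

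**Figure D2:**
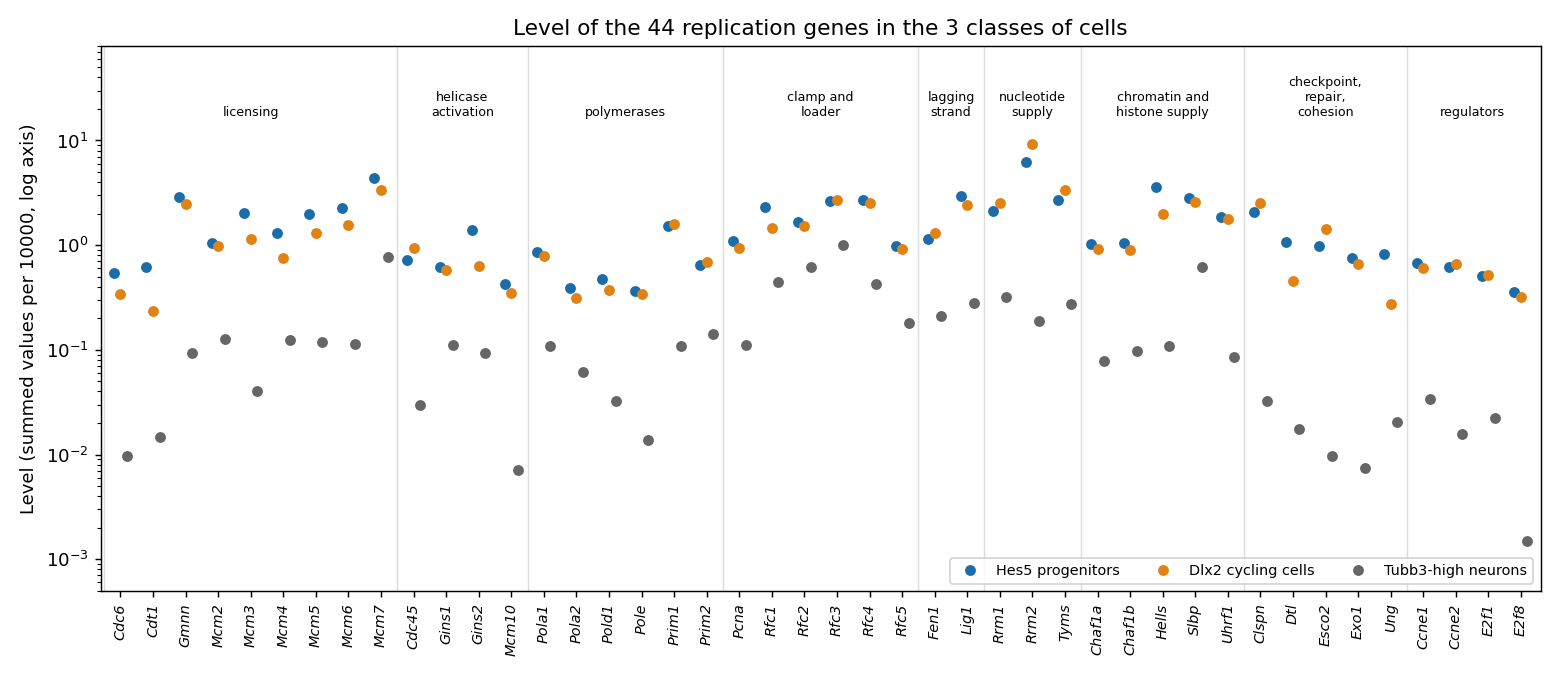
Level of each of the 44 genes (y axis, summed values per 10000 of the class, log scale) in Hes5 progenitors, Dlx2 cycling cells and Tubb3-high neurons, grouped by role along the x axis. The 2 cycling classes lie close together for most genes and above the neurons for all 44, with the smallest gaps at Rfc2 and Rfc3 and the largest at E2f8.

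The 9 licensing genes had a median log2 ratio of 4.32 in Hes5 progenitors over neurons. In Dlx2 cycling cells over Hes5 progenitors the ratio was below 1 for all 9 (median log2 -0.63), and for 8863 of 15266 genes (median -0.10 over all genes). Mcm3, a subunit of the Mcm2-7 ring (chr1:20802968-20820312, minus strand, GRCm38), had a level of 2.05 in Hes5 progenitors, 1.15 in Dlx2 cycling cells and 0.0400 in neurons. After thinning, 81.7% of Hes5 progenitors had a Mcm3 value (exact 95% interval 79.2 to 84.0%), as did 58.1% of Dlx2 cycling cells (51.9 to 64.0%) and 3.38% of neurons (2.66 to 4.23%). Unthinned, these shares were 87.7%, 62.2% and 4.11%. The 3 intervals did not overlap, though they cover counting error only. Mcm7, another subunit of the ring, stood out by its level in neurons: it had 4.42 in Hes5 progenitors, 3.37 in Dlx2 cycling cells and 0.773 in neurons, with values in 97.1%, 89.5% and 51.6% of thinned cells (98.9%, 94.0% and 58.0% unthinned). Cdt1, which loads the ring with Cdc6, had the largest gap between the cycling classes among licensing genes, with 0.236 in Dlx2 cycling cells and 0.613 in Hes5 progenitors (log2 ratio -1.38). Its inhibitor Gmnn, or geminin, had 2.47 and 2.88 in the same classes (-0.22) and 0.0942 in neurons. Mcm2 was the subunit with the smallest gap, at 0.973 in Dlx2 cycling cells and 1.05 in Hes5 progenitors (-0.11), while Mcm4 had 0.757 and 1.31 (-0.79).

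Among the 4 helicase activation genes, Gins2 and Cdc45 parted. Gins2, a GINS subunit, had 0.628 in Dlx2 cycling cells and 1.40 in Hes5 progenitors (log2 ratio -1.16), whereas Cdc45 had 0.939 and 0.723 (0.38). Gins1, a subunit of the same complex as Gins2, had 0.579 and 0.625 (-0.11), and in neurons it kept 0.111. Mcm10, which helps the helicase to start, had 0.346 in Dlx2 cycling cells, 0.426 in Hes5 progenitors and 0.0071 in neurons.

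The 6 polymerase genes differed little between the cycling classes, with log2 ratios of Dlx2 cycling cells over Hes5 progenitors between -0.37 for Pold1 and 0.10 for Prim2. Against neurons, Pole, the catalytic subunit of the leading strand polymerase, had the widest gap of the 6, with 0.368 in Hes5 progenitors and 0.0138 in neurons (4.73), and the primase subunit Prim2 the narrowest, with 0.649 and 0.142 (2.19). The other primase subunit, Prim1, had 1.51 in Hes5 progenitors and 0.108 in neurons (3.81).

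The clamp loader subunits Rfc3 and Rfc2 were the members nearest to even between cycling cells and neurons. Rfc3 (chr5:151642756-151651242, minus strand) had a level of 2.64 ± 1.79 in Hes5 progenitors, 2.67 ± 1.94 in Dlx2 cycling cells and 1.002 ± 0.966 in neurons (SD over cells), and 88.3%, 84.6% and 61.2% of thinned cells had a value (91.6%, 91.8% and 68.0% unthinned). Rfc2 had 1.65, 1.51 and 0.617. The other 3 loader subunits, Rfc1, Rfc4 and Rfc5, had log2 ratios of Hes5 progenitors over neurons between 2.37 and 2.65. Their clamp, Pcna (chr2:132249162-132253314, minus strand), had 1.103 in Hes5 progenitors, 0.933 in Dlx2 cycling cells and 0.112 in neurons. For the lagging strand, the flap nuclease Fen1 had 1.15, 1.31 and 0.209 and the ligase Lig1 had 2.97, 2.40 and 0.277.

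The nucleotide supply genes were the only role in which every gene lay above 1 in Dlx2 cycling cells over Hes5 progenitors, where 6403 of 15266 genes also lay above 1. Rrm2, the regulatory subunit of ribonucleotide reductase (chr12:24708241-24714146, plus strand), had a level of 9.32 ± 5.14 in Dlx2 cycling cells, 6.27 ± 3.35 in Hes5 progenitors and 0.187 ± 0.516 in neurons (SD over cells), and its log2 ratio of 0.57 between the cycling classes was the highest of the 44. All 267 Dlx2 cycling cells had a Rrm2 value (100%), as did 99.3% of Hes5 progenitors and 17.5% of neurons; thinned, these shares were 100%, 98.0% and 15.5%. The other reductase subunit, Rrm1, had 2.52 in Dlx2 cycling cells and 2.11 in Hes5 progenitors (0.26), and thymidylate synthase, Tyms, had 3.38 and 2.68 (0.34). None of the 3 reached 2-fold.

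Among chromatin and histone supply genes, Hells, a remodelling ATPase linked to DNA methylation, had 1.96 in Dlx2 cycling cells and 3.57 in Hes5 progenitors (log2 ratio -0.86). Uhrf1, which directs maintenance methylation, had 1.78 and 1.86 (-0.06). The chromatin assembly factor subunits Chaf1a and Chaf1b had ratios of -0.17 and -0.21. Slbp, which binds the stem-loop of histone mRNAs (chr5:33634952-33652574, minus strand), had 2.59 in Dlx2 cycling cells, 2.81 in Hes5 progenitors and 0.624 in neurons, where 45.5% of thinned cells (51.3% unthinned) had a value.

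The checkpoint, repair and cohesion genes were spread widely between the cycling classes, with log2 ratios from -1.59 to 0.52. Ung, the uracil glycosylase that removes uracil from DNA (chr5:114130386-114139323, plus strand), had the lowest ratio between the cycling classes, with 0.274 ± 0.673 in Dlx2 cycling cells and 0.822 ± 1.12 in Hes5 progenitors (SD over cells; log2 ratio -1.59). Thinned, 18.0% of Dlx2 cycling cells (exact 95% interval 13.6 to 23.1%), 41.4% of Hes5 progenitors (38.4 to 44.4%) and 2.01% of neurons (1.46 to 2.69%) had a Ung value; unthinned, 19.1%, 47.9% and 2.42%. Dtl, the substrate receptor that marks Cdt1 for destruction on chromatin, had 0.458 in Dlx2 cycling cells and 1.07 in Hes5 progenitors (-1.23). Esco2, the cohesin acetyltransferase (chr14:65819038-65833994, minus strand), had 1.41 and 0.987 (0.52), and Clspn, a checkpoint mediator, had 2.52 and 2.07 (0.28). Against neurons this role had the widest median gap of the 9, at 5.99 on the log2 scale for Hes5 progenitors, with Esco2 at 0.00972 and Exo1 at 0.00748 in neurons.

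The 4 regulators were nearly even between the cycling classes, with log2 ratios between -0.18 and 0.09. E2f1, an activator of S phase genes, had 0.518 in Dlx2 cycling cells, 0.512 in Hes5 progenitors and 0.0224 in neurons. Ccne1 and Ccne2, the E cyclins that drive S phase entry, had 0.610 and 0.662 in Dlx2 cycling cells and 0.669 and 0.624 in Hes5 progenitors. E2f8, a repressor of the same targets (chr7:48866429-48881596, minus strand), had 0.317 in Dlx2 cycling cells, 0.358 in Hes5 progenitors and 0.0015 in neurons; 37.2% of Hes5 progenitors had an E2f8 value (30.5% thinned), against 0.183% of neurons (0.0914% thinned).

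The level left in neurons differed widely among the genes. As a share of the Hes5 progenitor level it had a median of 6.72%, from 0.418% for E2f8 to 37.9% for Rfc3. It was under 5% for 18 genes and at least 15% for 12, namely Mcm7, Rrm1, Gins1, Slbp, Fen1, Pola2, Prim2 and the 5 loader subunits Rfc1 to Rfc5. The progenitor gene Hes5 itself stood at 2.28% by the same measure, and the 28 G2 and mitosis genes at a median of 2.04%, with 1.28 to 8.20% as their range. Leaving out neuron cluster 5, the neuron cluster with the highest sum of the module (9.51, against 6.20 in cluster 16, the lowest), left the median log2 ratio of Hes5 progenitors over neurons at 3.90.

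Other genes of the pathway moved in part with the module. Of 44 other replication genes, 39 were at least 2-fold higher in Hes5 progenitors than in neurons and 1 was lower (median log2 ratio 2.78). The lower one was Pold4, a small accessory subunit of polymerase delta, at -2.18, and the 4 in between were the origin recognition subunits Orc3 (0.37), Orc4 (0.12) and Orc5 (0.73) and the GINS subunit Gins4 (0.97). In Dlx2 cycling cells over Hes5 progenitors 2 were at least 2-fold lower, Orc1 at -1.57 and Pole2 at -1.27, and the median was -0.18. The 28 G2 and mitosis genes lay above 1 in that comparison without exception (median 0.57), as did 6403 of 15266 genes, though none of the 28 reached 2-fold. This list holds the 5 mitotic genes used to name the Dlx2 class, so its direction is set in part by the naming. The 60 histone genes had a median of 0.46. Of 13 genes of cell cycle exit and G1 control, Cdkn1c, an inhibitor of cyclin-dependent kinases, had 10.8 in Dlx2 cycling cells, 1.96 in Hes5 progenitors and 5.92 in neurons. Ccnd1, a D cyclin, had 4.37, 11.8 and 0.51 in the same order.

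Across the 17 clusters the genes of the module followed each other closely. The summed level was highest in the Dlx2 cluster 1 (83.2), followed by the Hes5 clusters 4 (79.2), 7 (71.8) and 2 (65.4), while the Dlx2 cluster 3, whose leading genes were mitotic (Ube2c, Cdc20, Ccnb1), had 31.7. Cluster 1 held the highest level of 21 genes, cluster 7 of 13, cluster 4 of 9 and cluster 2 of 1, Pold1. The members Ung, Cdc6, Dtl, Cdt1, Hells, Mcm3 and E2f1 were among the 10 leading genes of cluster 7, with Orc1 and Pole2 of the other replication genes. Members were left out of the clustering but the other replication genes were not, so the clusters are not independent of replication. The genes outside the module most like its mean over clusters, by Pearson correlation of log2(level + 0.05), were Topbp1 (0.993), Atad2 (0.993), Haus6 (0.991), Cdk2 (0.991), Rpa2 (0.990) and Zfp367 (0.989), then Tipin, Usp1, Timeless and Shmt1 (0.988 each). These are descriptions over 17 clusters that share a library. The least alike members were Mcm2 (0.885) and Ung (0.918).

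The unnamed clusters differed in how much of the module they held. Cluster 6 held 232 cells led by Gsx1, Helt, Gadd45g and Dll1, with Hes5 present at 7.37 and little Mki67 (0.647). Its summed level of the module was 36.1, and single genes stood at a median of 47.6% of the Hes5 progenitor level. Mcm2 reached 118% there (1.24 in cluster 6, 1.05 in Hes5 progenitors), E2f1 91.3%, Mcm4 73.4% and Mcm7 71.7%, while E2f8 had 20.6% and Esco2 6.41%. The histone genes summed to 15.04 in cluster 6, below every cluster of the cycling classes and also below every neuron cluster (17.0 to 27.0). Hes5 cluster 7, at 21.2, lay within the neuron range. In cluster 14, 155 cells led by Dll3, the module's median was 13.2% of the Hes5 level and Mcm2 was again the highest gene, at 68.1%. In cluster 17, 105 cells led by Hmx2 and Hmx3, the median was 7.45%, the highest gene was Rfc2 at 43.0%, and Mcm2 had 30.4%. Adding cluster 6 to the Hes5 progenitors changed their median log2 ratio over neurons to 3.74 and left 4 genes at least 2-fold lower in Dlx2 cycling cells than in Hes5 progenitors.

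To see where in the cycle each gene was highest, the 1314 cells of both cycling classes were sorted into 5 gates by 3 lists that hold no member, namely the histone genes, the G2 and mitosis genes and the other replication genes, with the upper 33.3% of cells on each list called high. The gates held 353 cells low on all 3 lists and 223 high on the replication list but not on histones or G2/M. Another 300 were high on histones but not G2/M, 138 on both, and 300 on G2/M but not histones. The last 3 gates took no account of the replication list, so they can hold cells high on it. The mean summed level of the module was 61.3 in cells low on all 3 lists, 97.3 with the replication list high, 86.9 with histones high, 53.9 with histones and G2/M high and 40.6 with G2/M high. Since the replication list moves with the module, the gates describe an order and test nothing. The order of the gates was assumed, and no time was measured. Of the cells, 322 (24.5%) lay within 10% of the replication cut, 123 (9.36%) of the histone cut and 94 (7.15%) of the G2/M cut.

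In this ordering 25 genes were highest in the replication gate, 18 in the histone gate and 1, Esco2, in the gate high on histones and G2/M. The first set was clear in most cases, as 19 of the 25 exceeded the next gate by at least 1.25-fold (median 1.41). The histone set was not: 0 of 18 had that margin and 10 were within 1.1-fold of the next gate. All 4 helicase activation genes, all 4 regulators and 8 of 9 licensing genes belonged to the replication gate, the exception being Gmnn. By contrast 5 of 6 polymerase genes, 5 of 6 clamp and loader genes, both lagging strand genes and all 3 nucleotide supply genes were highest in the histone gate. In Hes5 progenitors alone 42 of the 44 genes had the same highest gate. The assignment depends on the cut: the replication gate was the highest for 32 genes with the upper 25% of cells on each list called high and for 16 with the upper 50%, and the counts by role hold for the 33.3% cut.

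Cdc6 had the sharpest peak, with levels of 0.584, 1.29, 0.412, 0.0538 and 0.131 in the gates as ordered above, its replication gate standing 2.20-fold over the next. Ung had 1.02, 1.84, 0.497, 0.0376 and 0.0502 in the same order, a 36.7-fold span between the replication and G2/M gates. The S phase cyclin Ccne2 had 0.492, 1.35, 1.05, 0.14 and 0.0678. Both Cdc6 and Ung were thus low in the gates high in mitotic genes, whereas Tyms and Rrm1 had in the G2/M gate a level no lower than in cells low on all lists. Tyms had 1.77, 2.99, 4.30, 3.74 and 1.95 in the same order, and Rrm1 had 1.57, 2.24, 2.78, 2.78 and 1.98. Esco2 had 0.318, 0.779, 1.87, 1.94 and 0.947, with its 2 highest gates within 1.04-fold of each other. Gins1 was nearly flat, at 0.593, 0.699, 0.634, 0.570 and 0.583. The E2F letters printed above occurred in 11 of 21 promoters of genes highest in the replication gate (52.4%) and in 3 of 13 of those highest in the histone gate (23.1%).

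**Figure D3:**
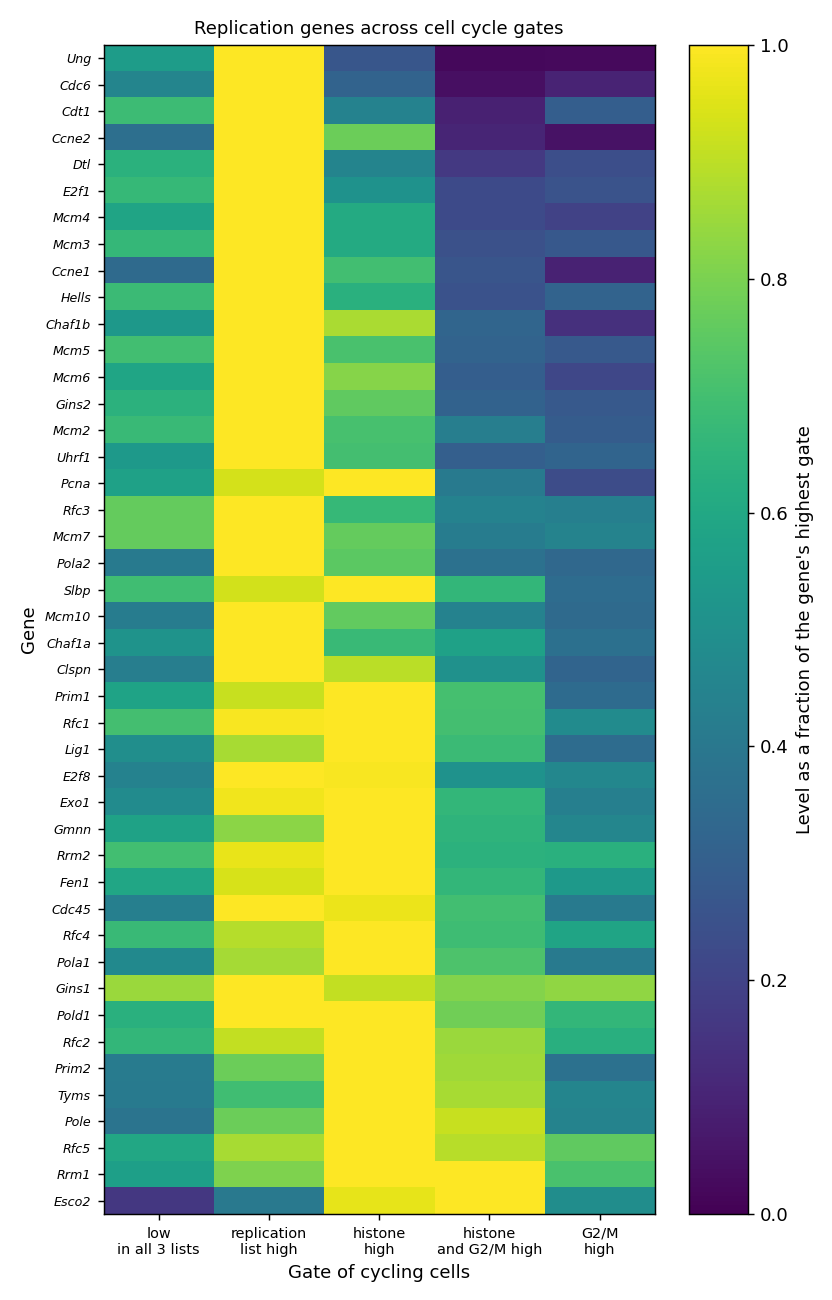
Level of each of the 44 genes in 5 gates of the 1314 cycling cells (columns, by non-member gene lists), as a fraction of the gene's highest gate (colour, 0 to 1). Genes are ordered by the centre of mass of their levels over the gates, in the gate order shown. Ung and Cdc6 are bright in the replication gate and dark in both G2/M gates, and Esco2 at the bottom is brightest in the histone and G2/M gates.

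The 2 cycling classes filled the gates unequally. Of Dlx2 cycling cells, 11.2% were low on all lists, 7.87% in the replication gate, 27.0% in the histone gate, 17.2% in the histone and G2/M gate and 36.7% in the G2/M gate. Of Hes5 progenitors, 30.9%, 19.3%, 21.8%, 8.79% and 19.3% were in the same gates. The Dlx2 class was required to be high in mitotic genes, so these shares are set in part by its naming. Within gates the median log2 ratio of Dlx2 cycling cells over Hes5 progenitors was -0.40 in cells low on all lists, 0.26 in the replication gate, 0.08 in the histone gate, 0.05 in the histone and G2/M gate and -0.63 in the G2/M gate. The replication gate held 21 Dlx2 cycling cells and 202 Hes5 progenitors, and there 0 genes were at least 2-fold lower in Dlx2 cycling cells (8.39% of 11891 genes) and 2, Esco2 and E2f8, at least 2-fold higher (12.4%). In cells low on all lists 8 genes were at least 2-fold lower (11.2% of 12096 genes). The histone gate, with 72 Dlx2 cycling cells and 228 Hes5 progenitors, held 0 genes past 2-fold in either direction (12.2% of 13612 genes lower, 6.52% higher).

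The gap was widest in the G2/M gate, where 14 of the 44 genes (31.8%) were at least 2-fold lower in the 98 Dlx2 cycling cells than in the 202 Hes5 progenitors, against 15.4% of 13889 genes. They were Mcm3, Mcm6, Mcm10, Pcna, Ung, Gins2, Cdc6, Dtl, Hells, Cdt1, Ccne1, Lig1, Exo1 and E2f8, of which 11 were highest in the replication gate and 3 in the histone gate. Mcm3 had 0.307 ± 0.431 in Dlx2 cycling cells and 1.16 ± 1.05 in Hes5 progenitors (SD over cells), with a value in 35.7% and 76.7% of cells. Dtl had 0.126 and 0.586, with values in 14.3% and 50.5% of cells, and Hells had 0.694 and 2.21. Ung had a value in 1 Dlx2 cycling cell and in 16 Hes5 progenitors of this gate. Rrm2 went the other way, with 6.75 in Dlx2 cycling cells and 4.92 in Hes5 progenitors, as did Cdc45, with 0.512 and 0.438. Both classes were alike in this gate in the sum of the G2 and mitosis list, at 163 ± 58.9 in Dlx2 cycling cells and 159 ± 44.6 in Hes5 progenitors (SD over cells), and in median total, at 13386 and 13580.5. They differed in Tubb3, at 18.8 in Dlx2 cycling cells and 2.39 in Hes5 progenitors, and in the histone sum, at 58.5 and 85.0. The sum of the other replication genes, also a gating list, was lower in Dlx2 cycling cells too, at 34.5 against 41.4. The part of these differences in the result was not tested. None of the 44 was at least 2-fold higher there (10.2% of genes). With the upper 25% of cells on each list called high the count of lower genes was 9, and with the upper 50% it was 21. No share over all genes is given at these 2 cuts, so these counts were not set against a background.

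**Figure D4:**
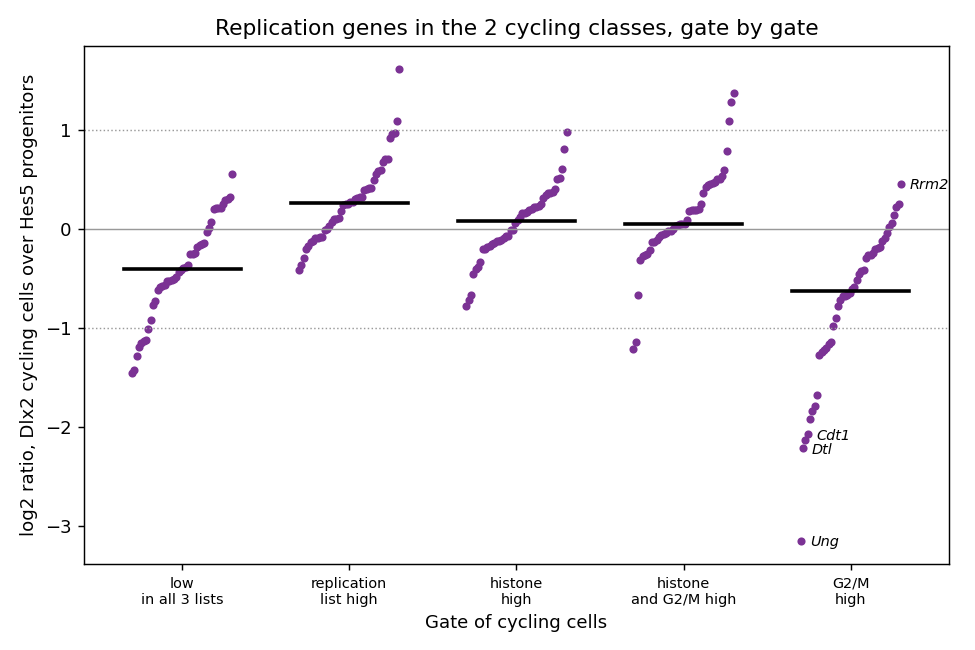
Log2 ratio of Dlx2 cycling cells over Hes5 progenitors (y axis) for each of the 44 genes (points, sorted within a gate) in the 5 gates (x axis), with the median as a black bar and dotted lines at 2-fold. The medians lie near 0 in the histone gates and at -0.63 in the G2/M gate, where Ung, Dtl and Cdt1 are far below the line and Rrm2 is the highest gene.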

How the data were processed

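The submitters' processing notes name GRCm38 as the build, with Cell Ranger 3.0.2 and bcl2fastq as tools. The authors deposited 1 matrix of 18088 genes by 4001 cells. Its values are whole numbers, but totals vary little between cells and 215 cells (5.37%) skip the value 1, so the deposited values are taken as a depth-corrected score and not as read or UMI counts; no source used here states the correction, and no count model was fitted. The deposited barcode list (unit other) describes the 6 sample barcodes and was used only for the design.

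The 44 genes and all lists were chosen with earlier results of these data known. Cells were clustered with scanpy 1.11.5 (2000 variable genes without the 44, 30 components, 15 neighbours, Leiden resolution 1, Python 3.11.15, igraph 0.11.9), after doublet calls at a 5% rate. A class needed at least 3 of its markers 1.5-fold above the other cells and seen in 10% of cells, and more such markers than either other class. Hes5 or Dlx2 had to be among them for those classes, and Tubb3 no lower than in other cells for neurons. At least 3 of 5 mitotic genes had to be raised for the Dlx2 class and fewer than 3 for neurons; this naming rule was set after the clusters were seen. The genes named are all members by role, the other pathway lists, and the 10 genes most alike over clusters. Gene positions are those of the GENCODE annotation of GRCm38, and promoter starts are those of the RefSeq table. With 1 RNA library there is no replicate, so no p-value was computed. A fold of 2 stands for a call, and intervals are exact (Clopper-Pearson) over cells. The level and ratio calculation was run on simulated data with known classes, for 1 pair of classes. The clustering, the naming and the gates were not simulated. Alternatives changed the clustering, the genes clustered on, the naming, the scale, the minimum sum, the doublets and the gate cuts.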

Additional observations from a re-analysis of the deposited data

How the results depend on the processing

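All 44 genes stayed at least 2-fold higher in Hes5 progenitors and in Dlx2 cycling cells than in Tubb3-high neurons under each of the 14 alternatives run. The median log2 ratio ran from 3.74 to 4.01 for Hes5 progenitors and from 3.34 to 4.04 for Dlx2 cycling cells. Minimum sums of 100 or 1 could not change any of these values, because every member had at least 634 summed values. Leaving out neuron cluster 5 removed only 41 cells. The near-even comparison of Dlx2 cycling cells with Hes5 progenitors was less stable, with medians between -0.40 (4000 variable genes) and 0.26 (Leiden resolution 0.5). The number of genes at least 2-fold lower in Dlx2 cycling cells was 4, but 0 at resolution 0.5, 7 with 4000 variable genes, 2 with all cell cycle lists left out of the clustering and 1 with classes from single-cell gates; it was 4 under the other 10. The number of genes highest in the replication gate was 25, 32 with the upper 25% of cells on each list and 16 with the upper 50%. The G2/M gate's count of 14 lower genes became 9 and 21 at the same cuts. Under the alternatives no share over all genes was set beside these counts. The causes were not tested. Leaving out neuron cluster 5, adding cluster 6 to the Hes5 progenitors and the other gate cuts for the G2/M count were chosen after seeing the data. No paired analysis was possible because there was 1 RNA library and no result comes from a test. With 1 library, differences between embryos, litters and barcoded suspensions were not measured, and low levels such as E2f8 in neurons rest on few values.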
